A study of Saccharomyces cerevisiae with 94 samples.

Results

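The ribosomal protein genes of budding yeast (Saccharomyces cerevisiae) described here are 60 genes taken by name, 30 for proteins of the large ribosomal subunit (RPL) and 30 for proteins of the small subunit (RPS), out of 6444 genes in the table. All 60 passed the filter on low values. A further 77 ribosomal protein genes, recognised by their symbols, were kept apart for comparison. RNA-seq, in which cDNA copied from RNA is sequenced, gave transcript levels in sml1Δ SSDDCS cultures (SSDDCS below) and in sml1Δ cultures. Both strains lack SML1, which encodes an inhibitor of the enzyme that makes DNA precursors. SSDDCS cells over-expressed SLD2, SLD3, DPB11, DBF4, CDC45 and SLD7, limiting factors for firing replication origins, from galactose-inducible constructs marked with LEU2, HIS3 and TRP1, whereas sml1Δ cells carried URA3 in place of SML1. Cells of both strains grew in raffinose medium, were arrested in G1 with the mating pheromone alpha factor and received galactose during the arrest. They were then released by washing into galactose medium. Galactose is thus common to every group, whereas the pheromone was washed away after the G1 samples. Each strain was sampled in G1 and at 5, 10, 15, 20, 25, 30, 35, 40, 45, 50 and 60 min after release, with 4 replicates per time point and 3 at 25 min.

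Ribosomal proteins are made in near-equal amounts, and their genes are transcribed together at a high rate. Rap1 binds most of their promoters and brings in Fhl1, Ifh1 and Sfp1, through which nutrient and stress signals from the TOR and protein kinase A pathways raise or lower the whole group. Many of these proteins are encoded by a pair of nearly identical genes, called A and B, left by an ancient duplication of the genome. The comparison asked whether transcripts of this co-regulated and highly transcribed group changed when replication was advanced across the genome.

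Promoter sequence is shown for the members on which the results turn. RPS9A and its partner RPS9B moved differently, RPL4A and RPL4B moved together and unlike most members after release, and RPS31 had the highest level. Each run is 300 bases of the strand that carries the gene, written 5′ to 3′ from the R64 assembly of RefSeq, and ends at the base before the start codon except for RPL4B, whose run covers bases 422 to 123 before the start codon. Capitals mark matches on either strand to CCNTACA, part of the Rap1 site, or to GACGC, a sequence associated with Fhl1.
RPS9A, chrXVI:404650-404949, forward strand: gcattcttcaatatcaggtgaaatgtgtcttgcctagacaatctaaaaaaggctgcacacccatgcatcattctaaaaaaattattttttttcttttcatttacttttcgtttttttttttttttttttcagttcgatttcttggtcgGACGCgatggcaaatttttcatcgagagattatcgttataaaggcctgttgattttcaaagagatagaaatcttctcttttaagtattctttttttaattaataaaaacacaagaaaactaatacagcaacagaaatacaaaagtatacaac
RPS9B, chrII:604208-604507, forward strand: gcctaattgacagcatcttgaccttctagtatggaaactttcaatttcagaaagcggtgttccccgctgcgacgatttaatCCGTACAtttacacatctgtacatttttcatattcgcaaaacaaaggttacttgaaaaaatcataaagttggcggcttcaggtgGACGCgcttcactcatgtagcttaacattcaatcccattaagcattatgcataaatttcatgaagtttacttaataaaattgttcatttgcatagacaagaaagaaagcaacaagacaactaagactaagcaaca
RPL4A, chrII:299866-300165, forward strand: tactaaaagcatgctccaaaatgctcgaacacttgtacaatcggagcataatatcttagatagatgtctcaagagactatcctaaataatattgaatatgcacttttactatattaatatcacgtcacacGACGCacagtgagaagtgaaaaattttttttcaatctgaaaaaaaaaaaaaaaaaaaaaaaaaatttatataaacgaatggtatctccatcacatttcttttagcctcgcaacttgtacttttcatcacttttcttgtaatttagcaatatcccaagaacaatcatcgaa
RPL4B, chrIV:471431-471730, forward strand: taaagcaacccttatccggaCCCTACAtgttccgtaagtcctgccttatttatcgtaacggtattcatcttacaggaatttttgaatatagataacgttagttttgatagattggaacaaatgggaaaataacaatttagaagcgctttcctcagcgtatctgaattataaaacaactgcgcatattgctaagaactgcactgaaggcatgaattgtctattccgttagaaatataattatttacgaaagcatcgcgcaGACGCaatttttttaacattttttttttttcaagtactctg
RPS31, chrXII:498647-498946, forward strand: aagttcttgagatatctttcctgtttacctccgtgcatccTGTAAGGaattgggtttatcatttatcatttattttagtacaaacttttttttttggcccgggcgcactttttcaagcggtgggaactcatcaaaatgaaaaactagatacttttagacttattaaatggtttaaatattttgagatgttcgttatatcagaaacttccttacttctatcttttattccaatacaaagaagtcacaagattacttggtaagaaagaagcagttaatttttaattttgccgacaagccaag

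The Rap1 core CCNTACA was found in the 500 bases before the start codon in 38 of 60 members (63.3%), against 15.9% of 5827 genes with such a window. It was found in 55.8% of the 77 other ribosomal protein genes. GACGC was found in 36 members (60.0%), against 29.9% of those 77 and 30.4% of all genes with a window. In these windows RPS9B, RPL4B and RPS31 each held 1 match to the Rap1 core, and RPS9A and RPL4A held none. A match is a run of letters, not a measured binding site, and a window without a match may still be bound.

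Libraries held 8119387 to 21677438 reads in genes. Replicate 1 of both strains was the deepest, with a median of 15435433 reads in SSDDCS and 20480360 in sml1Δ. The 6 over-expressed factors were all higher in SSDDCS at 30 min. Levels are given as normalised read counts, the reads of a gene over the scaling factor of its library. Tests were made with limma on log2(value + 1) across all genes, and a gene is called at a Benjamini-Hochberg adjusted p under 0.01. Replicates of a group are numbered in the labels. These tests have no term for the number, and a fit with the number as a block is given where it changed a count. The ratios of gene copies were averaged over the libraries of a strain with the same number, called a culture below. In sml1Δ the libraries labelled replicate 4 at 50 and 60 min lay each nearer to the other time, with a root mean square log2 distance over 6404 genes of 0.33 to the other 60 min libraries and 0.49 to the other 50 min libraries for the 50 min library, and of 0.27 to the other 50 min libraries and 0.32 to the other 60 min libraries for the 60 min library. The 50 min library of sml1Δ replicate 1 was also slightly nearer to 60 min (0.49) than to 50 min (0.50). Strain differences at these times are given with and without both libraries of replicate 4. All values are relative to the other transcripts of a library, so fewer transcripts of a group and more of the rest cannot be told apart.

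Members were among the most abundant transcripts of the cell. Mean level per kilobase of coding length ran over the 60 members between 7195 and 77529, with a median of 22118, against a median of 474 over 5834 genes. Of the 60, 59 lay in the top 5% of genes. RPS31 (YLR167W, chromosome XII, 498947 to 499405), which makes a small-subunit protein fused to ubiquitin, was highest, and RPS12, RPL10, RPS20 and RPL3 were among the next. RPS9A (YPL081W, chromosome XVI, 404950 to 406044, with 1 intron), which makes a small-subunit protein known for its part in accurate decoding, was lowest. RPS9B (YBR189W, chromosome II, 604508 to 605508, with 1 intron) ranked 16 of 60 and had 4.02 times the level of RPS9A per kilobase.

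Together the members took a similar part of the library in both strains. Their share was 6.79% ± 0.51 in SSDDCS against 6.80% ± 0.44 in sml1Δ in G1 (SD, n = 4 each). It stood at 7.70% ± 0.50 in SSDDCS against 8.16% ± 0.93 in sml1Δ at 30 min (SD, n = 4 each). The 60 min libraries had 8.37% ± 0.35 in SSDDCS against 8.37% ± 1.495 in sml1Δ (SD, n = 4 each). The strains overlapped at each of these times. The spread within sml1Δ grew over the course, with a range at 60 min of 7.89% to 8.64% in SSDDCS and 6.84% to 9.97% in sml1Δ. No test was made of this share.

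**Figure D1:**
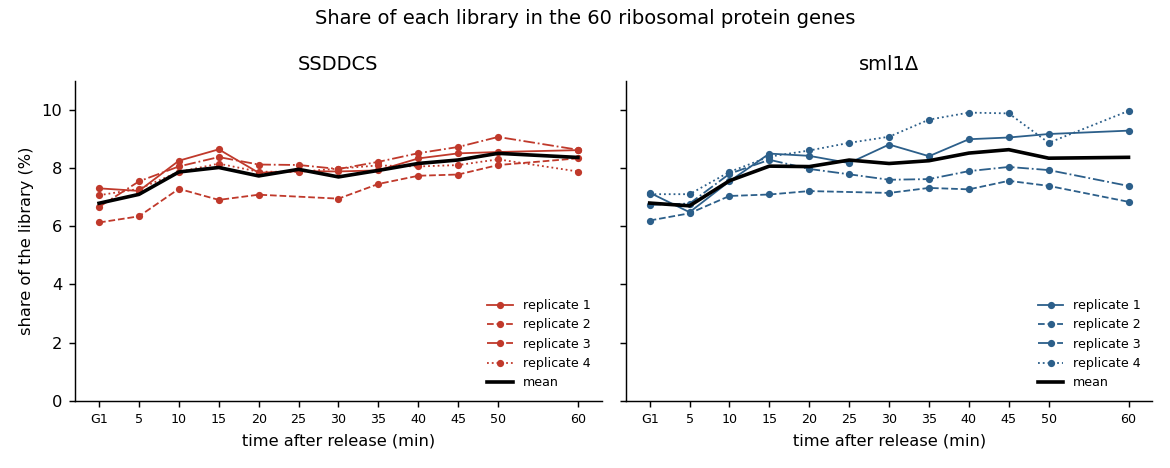
Share of each library taken by the 60 ribosomal protein genes (%, vertical axis) against time after release (min, horizontal axis), with SSDDCS left and sml1Δ right. Thin lines are replicates and the black line is their mean, which lay at 6.79% in SSDDCS and 6.80% in sml1Δ in G1 and at 8.37% in both strains at 60 min, while sml1Δ replicates spread more widely late in the course.

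Most members followed a common course. The Pearson correlation of a member's 24 group means with the mean of the other members had a median of 0.94 and exceeded 0.9 in 40 of 60. It is a description over groups that share libraries and scaling. The lowest values were 0.04 for RPS9A, 0.37 for RPL8A, 0.57 for RPL1A, 0.67 for RPL9B and 0.74 for RPS14A. The ratio of the highest to the lowest group mean had a median of 1.25 in SSDDCS and 1.35 in sml1Δ, against 1.82 in SSDDCS and 1.76 in sml1Δ over 6404 genes. In SSDDCS 56 members, and in sml1Δ 59, had their highest mean at 35 min or later. Neither these counts nor that of correlations above 0.9 is set beside a share of all genes. The late levels also depend on the scaling. After quantile normalization the median change of the members from 20 to 40 min was -0.04 in SSDDCS and -0.02 in sml1Δ, with 36 members below 0 in each.

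Change over time was tested within each strain. In SSDDCS 20 of 60 members were called, whereas 86.8% of all genes were. In sml1Δ 48 of 60 were called, against 83.5% of all genes. All 20 members called in SSDDCS were also called in sml1Δ, among them RPL3, RPL4A, RPL4B, RPL5, RPL10, RPS3, RPS31 and both RPS9 genes, and 12 members, among them RPL12A, RPL16B, RPL25, RPL1A and RPS7A, were called in neither strain. The matching overlap over all genes is not given, and most genes were called in each strain. By DESeq2 or with the replicate block all 60 members were called in sml1Δ, so the set called in neither strain was then empty. The order of the strains depended on the processing, with 40 members called in SSDDCS (87.5% of all genes) against 25 in sml1Δ (80.2% of all genes) after quantile normalization, and 58 in SSDDCS (89.9% of all genes) against 60 in sml1Δ (86.4% of all genes) by DESeq2. With replicate number as a block, 52 members were called in SSDDCS (93.9% of all genes) and 60 in sml1Δ (91.6% of all genes). Without 1 SSDDCS replicate at a time 6 to 7 members were called in SSDDCS, 33 were called there without sml1Δ replicate 2, and 27 or 30 were called in sml1Δ without its replicate 1 or 4. For fits with a replicate left out, here and below, the share of all genes is not given. Such counts therefore cannot be read as particular to the members.

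**Figure D2:**
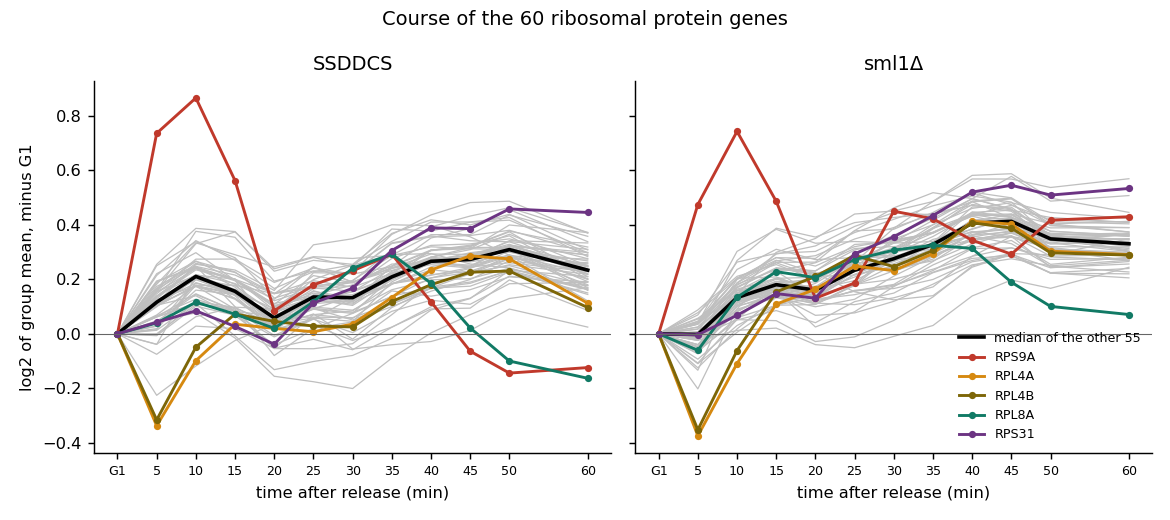
Log2 of the group mean relative to G1 (vertical axis) against time after release (min, horizontal axis) for each of the 60 genes, with SSDDCS left and sml1Δ right. Grey lines are single genes and the black line is the median of the genes not coloured. RPS9A stands above the others at 5 min, where its test against G1 gave 0.74 in SSDDCS and 0.47 in sml1Δ, and RPL4A and RPL4B stand below them.

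Between G1 and 5 min, 3 members changed in each strain and they were the same genes, RPS9A, RPL4A and RPL4B. In SSDDCS 1 member was higher (25.6% of all genes were higher) and 2 were lower (27.6% of all genes). In sml1Δ 1 was higher (23.2% of all genes) and 2 were lower (25.6% of all genes). With the replicate block the counts were 8 in SSDDCS (61% of all genes) and 4 in sml1Δ (56.8% of all genes).

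RPS9A had 5674, 4920, 5658 and 5105 normalised read counts at 5 min in SSDDCS, against 3246, 2789, 3293 and 3493 in G1. In sml1Δ it had 5518, 4298, 5643 and 4572 at 5 min, against 3531, 3380, 3611 and 3892 in G1. In both strains every 5 min library lay above every G1 library. The log2 difference was 0.74 (SE 0.09, limma adjusted p 1.43e-11) in SSDDCS and 0.47 (SE 0.09, limma adjusted p 3.58e-06) in sml1Δ, and it was called in all 20 alternatives in each strain. RPS9B had 14889 ± 1393 in SSDDCS at 5 min against 14733 ± 1294 in G1 (SD, n = 4 each), and was not called.

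RPL4A (YBR031W, chromosome II, 300166 to 301254) and RPL4B (YDR012W, chromosome IV, 471853 to 472941) encode uL4, a protein that lines the exit tunnel for the growing peptide. RPL4A had 17972, 15592, 17192 and 15487 at 5 min in SSDDCS, against 22860, 20643, 19553 and 20637 in G1. It had 15997, 15009, 15446 and 15165 at 5 min in sml1Δ, against 22071, 18636, 18664 and 20500 in G1. The 5 min libraries lay below all G1 libraries in both strains. RPL4A fell by 0.34 (SE 0.10, limma adjusted p 0.00304) in SSDDCS and by 0.37 (SE 0.10, limma adjusted p 0.00133) in sml1Δ on the log2 scale. RPL4B fell by 0.32 (limma adjusted p 0.00587) in SSDDCS and by 0.35 (limma adjusted p 0.0028) in sml1Δ, also with no overlap. Only 27.3% of stretches of 50 bases in these genes occur once in the genome, so their reads may be shared and the similar course of the pair is uncertain. Only RPS9A kept its call in SSDDCS without replicate 1, 2 or 4 of SSDDCS, and only RPS9A in sml1Δ without replicate 4 of sml1Δ.

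From 5 to 20 min the signs turned for these genes. In SSDDCS 2 members rose (21.3% of all genes) and 1 fell (19.5% of all genes), and in sml1Δ 7 rose (18.4% of all genes) and 1 fell (17.4% of all genes). RPL4A and RPL4B rose and RPS9A fell in both strains. In sml1Δ RPL3, RPL7A, RPL9B, RPL15A and RPS20 rose as well, and the difference between the strains in this step was not tested. With the replicate block 6 members were called in SSDDCS (49.5% of all genes) and 22 in sml1Δ (43.8% of all genes). Left-out replicates gave 1 to 4 calls in SSDDCS, with 1 without its replicate 1, 3 or 4, and 4 to 9 in sml1Δ, with 4 without its replicate 1 or 3 and 5 without SSDDCS replicate 4.

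RPL3 (YOR063W, chromosome XV, 444686 to 445849), a large-subunit protein that reaches towards the peptidyl transferase centre, illustrates the step in sml1Δ. It had 55615, 45766, 48946 and 53627 at 20 min, against 38148, 34695, 37911 and 37901 at 5 min. The libraries did not overlap, and RPL3 rose by 0.45 on the log2 scale (SE 0.09, limma adjusted p 8.25e-06). In SSDDCS it had 45094 ± 2980 at 20 min against 41202 ± 3964 at 5 min (SD, n = 4 each) and was not called.

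From 20 to 40 min nearly all members had higher means, yet few changed by the test. In SSDDCS 5 rose (12.9% of all genes) and 0 fell (15.6% of all genes), and in sml1Δ 6 rose (17% of all genes) and 0 fell (17.5% of all genes). RPS3, RPS20, RPS31 and RPL10 rose in both strains, RPS1A in SSDDCS, and RPL5 and RPL16A in sml1Δ. The lowest change of a member was -0.06 in SSDDCS and 0.02 in sml1Δ, both for RPL9B. The median change was 0.17 in SSDDCS and 0.21 in sml1Δ, against 0.00 in SSDDCS and 0.02 in sml1Δ over all genes. With the replicate block 24 members were called in SSDDCS (37.5% of all genes) and 27 in sml1Δ (42.9% of all genes), all higher. The step depended on scaling. When libraries were set to equal totals, which moved the median of all genes to -0.12 in SSDDCS and -0.13 in sml1Δ, 1 member was called in SSDDCS and 0 in sml1Δ, and after quantile normalization the median of the members was -0.04 in SSDDCS and -0.02 in sml1Δ. Counts were 0 or 1 in SSDDCS without any 1 of its replicates, 9 or 8 there without sml1Δ replicate 2 or 4, and 2 or 3 in sml1Δ without its replicate 1 or 4.

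RPS31 had the largest of these changes in SSDDCS. It had 39923, 39064, 42879 and 40870 at 40 min in SSDDCS, against 30847, 28027, 32491 and 29685 at 20 min. In sml1Δ it had 42695, 33688, 37726 and 48792 at 40 min, against 31655, 27409, 31639 and 33642 at 20 min. In both strains the 40 min libraries lay above the 20 min libraries, in sml1Δ by a narrow margin. RPS31 rose by 0.43 (SE 0.10, limma adjusted p 6.52e-04) in SSDDCS and by 0.38 (SE 0.10, limma adjusted p 0.00195) in sml1Δ. Over 20 alternatives the change of RPS31 ran from 0.18 to 0.46 in SSDDCS and from 0.0088 to 0.42 in sml1Δ. RPL16A (YIL133C), which makes the large-subunit protein uL13, had 9538 ± 1500 at 40 min against 6992 ± 938 at 20 min in sml1Δ (SD, n = 4 each) and rose by 0.44 (limma adjusted p 6.97e-04). RPS3, a protein at the entry of the mRNA channel, rose by 0.36 in sml1Δ although its libraries overlapped.

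From 40 to 60 min 1 member fell in SSDDCS (13.4% of all genes were lower) and 0 rose (10.6% of all genes), the highest change being 0.16 for RPL1A. In sml1Δ 0 rose (8.03% of all genes) and 0 fell (11.4% of all genes) by limma, edgeR or DESeq2, and 3 had an unadjusted p under 0.05, and without sml1Δ replicate 4 at 60 min the count in sml1Δ was also 0. With the replicate block 3 were called in SSDDCS (32.9% of all genes) and 2 in sml1Δ (29.2% of all genes). The member that fell was RPL8A (YHL033C, chromosome VIII, 35255 to 36025), which encodes the large-subunit protein eL8. It had 9251, 8880, 9463 and 7710 at 60 min in SSDDCS, against 12366, 10563, 11261 and 10783 at 40 min, with no overlap. RPL8A fell by 0.35 (SE 0.10, limma adjusted p 0.00445), but the call was lost without any 1 SSDDCS replicate, leaving 0. In sml1Δ it had 10204 ± 1899 at 60 min and 12073 ± 1485 at 40 min (SD, n = 4 each), and its own change was not called.

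The strains were then compared at each time point. No member was called in G1, when 0.515% of all genes were, or at 5, 10, 15, 20 and 25 min, when the share of all genes was 0.281%, 0.203%, 2.72%, 17.9% and 21.5% in that order. In these 6 comparisons limma, edgeR and DESeq2 each called 0 members, and the number with an unadjusted limma p under 0.05 was 1 in G1, 2 at 20 min and 0 at the other times. From 30 min on, 1 of 60 members was called at every time point, always RPS9A and always lower in SSDDCS. Over all genes 31.2% were called at 30 min (16.9% higher and 14.3% lower). At 35, 40, 45, 50 and 60 min the share of all genes was 27.4%, 19.7%, 13.4%, 9.06% and 5.2% in that order, so 1 call among 60 members lay below the background at each of these times. The median standard error of a difference was 0.10 for members and 0.13 for all genes.

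Below the threshold the members had small differences, mostly of one sign at each time other than G1 and 50 min. The median difference was 0.12 at 5 min, with all 60 members above 0, and -0.10 at 20 min and -0.14 at 30 min, with all 60 below 0, against -0.04 over all genes at 20 and 30 min. After quantile normalization 54 members were above 0 at 5 min, and 12 were above 0 at 30 min. Their median was then -0.039 at 20 min and -0.045 at 30 min, against -0.064 and -0.083 over all genes. The members thus lay below all genes as reported and above them after quantile normalization, so their relative place depended on the scaling. At 60 min the sign depended on the processing, with 55 members below 0 and a median of -0.08 as reported, against -0.0004 over all genes. With equal library totals 33 were above 0 and the median was 0.0082, but the median of all genes was then 0.09. After quantile normalization 46 were above 0 and the median was 0.06, against -0.0005 over all genes. Without sml1Δ replicate 4, 37 were above 0 and the median was 0.02. Relative to all genes the members thus lay lower at 60 min as reported and with equal totals, and higher after quantile normalization. At 50 min the count above 0 was 22 as reported, 44 with equal totals, 45 after quantile normalization and 33 without sml1Δ replicate 4. With equal totals the median at 50 min was 0.0305 for members and 0.0309 for all genes. The 95% interval of a single member reached 0.20 to either side of its difference. The 30 large-subunit and 30 small-subunit genes had like medians at 30 min, -0.14 each, as did the 32 members with an intron and the 28 without (-0.14 each). The 38 members with a Rap1 core had a median of -0.14 and the 22 without one -0.15. The 28 members within 10 kb of an annotated origin had a median of -0.13 and the 32 farther away -0.14.

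**Figure D3:**
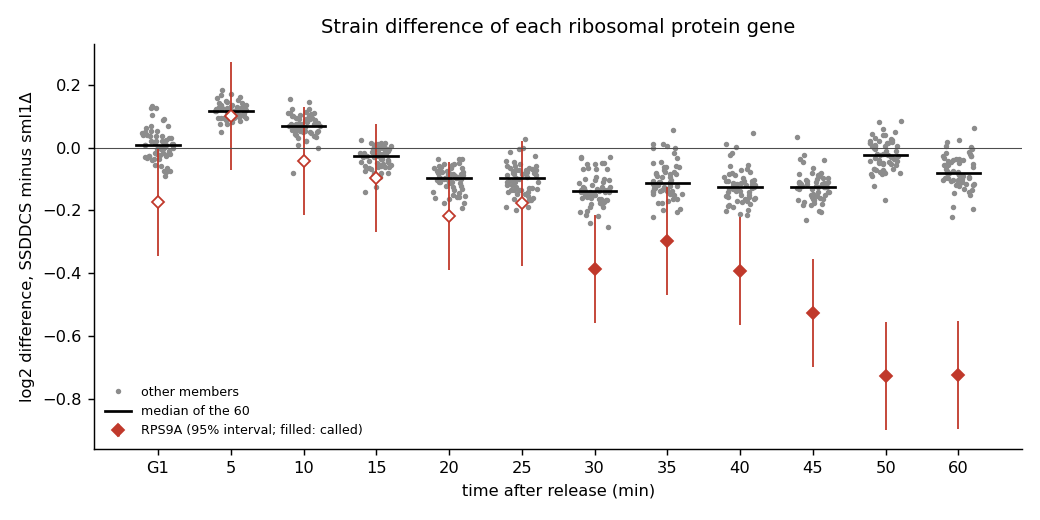
Log2 difference, SSDDCS minus sml1Δ (vertical axis), of each ribosomal protein gene against time after release (min, horizontal axis). Grey points are single genes, short black lines the median of the 60, and diamonds RPS9A with its 95% interval, filled where called. RPS9A moves away from the other members, with -0.39 at 30 min and -0.72 at 60 min.

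Taken by replicate number, the difference at 5 min had 1 sign, with medians of 0.16, 0.06, 0.20 and 0.04 for numbers 1 to 4 and 60, 52, 60 and 58 members above 0. At 20 min the medians were -0.15, -0.04, -0.0093 and -0.19, with 0, 12, 26 and 0 members above 0. The difference at 20 min was thus close to 0 for number 3, and those at 30 and 60 min were not shared by all replicates. Taken by replicate number at 30 min, the median difference over members was -0.25 for number 1, -0.04 for number 2, 0.04 for number 3 and -0.30 for number 4. At 60 min it was -0.21 for number 1, 0.20 for number 2, 0.13 for number 3 and -0.42 for number 4. For numbers 1 and 4 at most 1 member lay above 0 at either time, whereas for numbers 2 and 3 it was 16 and 51 at 30 min and 59 each at 60 min. Marker genes split the same way in sml1Δ. The summed level of 8 stress-induced genes (HSP12, CTT1, DDR2, HSP26, TPS1, SSA4, GPH1 and PGM2) at 60 min was 8918, 6802, 10897 and 19721 in SSDDCS, against 7045, 20481, 19270 and 6273 in sml1Δ for numbers 1 to 4. At 30 min it was 8379, 13339, 6527 and 10505 in SSDDCS, against 2455, 6063, 6012 and 2577 in sml1Δ. The sml1Δ libraries 2 and 3 were thus high at both times. The split at 60 min is uncertain for number 4, whose sml1Δ libraries at 50 and 60 min lay each nearer to the other time. Its sml1Δ library at 50 min had a summed stress level of 17771, against 6273 in that at 60 min. The median difference of -0.42 for number 4 at 60 min carries the same limit. The summed level of 6 stage markers at 30 min was also higher in sml1Δ libraries 2 (54442) and 3 (67141) than in 1 (42749) and 4 (44175). That sum pools markers of different stages and rests mostly on HTA1 and HTB1 (means of 24865 and 32037, of 67196 in sml1Δ at 25 min). At 40 min sml1Δ libraries 2 and 3 had more HTA1, HTB1, RNR1 and CLN2 than 1 and 4. They had less CLB2 (1486 and 964 against 1970 and 1638), and FUS1 overlapped. The part of either list in the split was not tested. With replicate number as a block, 4 members were called at 30 min (RPS9A, RPL11A, RPL12A and RPS7B, 39.8% of all genes), 3 at 35 min (RPS9A, RPS11A and RPS15, 36.1% of all genes) and 2 at 45 min (RPS9A and RPL11A, 21% of all genes), all lower. RPL12A, whose protein sits at the base of the ribosomal stalk, had 6546 ± 569 in SSDDCS against 7862 ± 1297 in sml1Δ at 30 min (SD, n = 4 each). Its log2 difference was -0.25 with a limma adjusted p of 0.0614, or 0.00263 with the block. Without sml1Δ replicate 2, 3 members were called at 30 min and 2 at 40 min.

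RPS9A was the member that separated the strains. At 30 min it had 3909, 3264, 3885 and 3994 in SSDDCS, against 5456, 4413, 4487 and 5337 in sml1Δ. At 60 min it had 2822, 2979, 3325 and 2638 in SSDDCS, against 5089, 4321, 4787 and 5221 in sml1Δ. All SSDDCS libraries lay below all sml1Δ libraries at every time point from 20 min on. RPS9A differed by -0.39 on the log2 scale at 30 min (SE 0.09, limma adjusted p 1.86e-04). The difference was -0.73 at 50 min (SE 0.09, limma adjusted p 4.47e-10), and -0.72 in the last libraries (SE 0.09, limma adjusted p 8.86e-10). RPS9A was lower in SSDDCS for every replicate number at each time point from 15 min on, numbers 2 and 3 included. It was also lower for all 4 numbers in G1, with log2 differences of -0.12, -0.28, -0.13 and -0.16, and higher for all 4 at 5 min, with 0.04, 0.20, 0.0038 and 0.16, although it was not called at these times. Without sml1Δ replicate 4 the difference was -0.63 at 50 min and -0.69 at 60 min.

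At 35 min the difference was -0.30 (limma adjusted p 0.00428), and its call was lost without SSDDCS replicate 1 (-0.26) or 4 (-0.30), without sml1Δ replicate 3 (-0.28) or 4 (-0.24), with equal library totals (-0.25), with totals equal outside ribosomal protein genes (-0.26), with quantile normalization (-0.25) and in libraries of that time alone. At 40, 45 and 60 min the call held in all 21 alternatives. At 30 and 50 min it was lost only when the libraries of that time were fitted alone.

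By limma without the block, RPS9A was the only member whose strain difference changed over time. The F-test of 11 strain-by-time terms called 1 of 60 members (limma adjusted p 2.54e-08), against 22.2% of all genes, and edgeR and DESeq2 each called 1. With the replicate block it called 3, RPS9A, RPL12A and RPS15 (35% of all genes). RPS9A had 5843 ± 126 in SSDDCS after 10 min, 3398 ± 258 after 20 min and 2900 ± 383 after 50 min (SD, n = 4 each). In sml1Δ it had 6032 ± 465 after 10 min, 3945 ± 172 after 20 min and 4812 ± 706 after 50 min (SD, n = 4 each). The mean in sml1Δ was thus higher after 50 min than after 20 min. In SSDDCS the mean after 50 min was lower than after 20 min and near its level in G1 of 3205 ± 297 (SD, n = 4). The level after 50 min was not by itself tested against 20 min or G1.

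RPS9B did not follow. At 60 min it had 18289, 17321, 19231 and 17554 in SSDDCS, against 20475, 14380, 15744 and 21909 in sml1Δ. The SSDDCS values lay inside the range of sml1Δ, where replicates 1 and 4 were high and 2 and 3 low. RPS9B was called at no time point in the strain comparison by limma, with or without the block. The log2 ratio of RPS9A to RPS9B, which does not depend on the scaling of a library, was -2.19 ± 0.03 in SSDDCS against -1.84 ± 0.06 in sml1Δ at 30 min, and -2.63 ± 0.10 in SSDDCS against -1.88 ± 0.18 in sml1Δ at 60 min (SD, n = 4 each). Of the stretches of 50 bases 94.98% in RPS9A and 94.92% in RPS9B occur once in the genome.

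**Figure D4:**
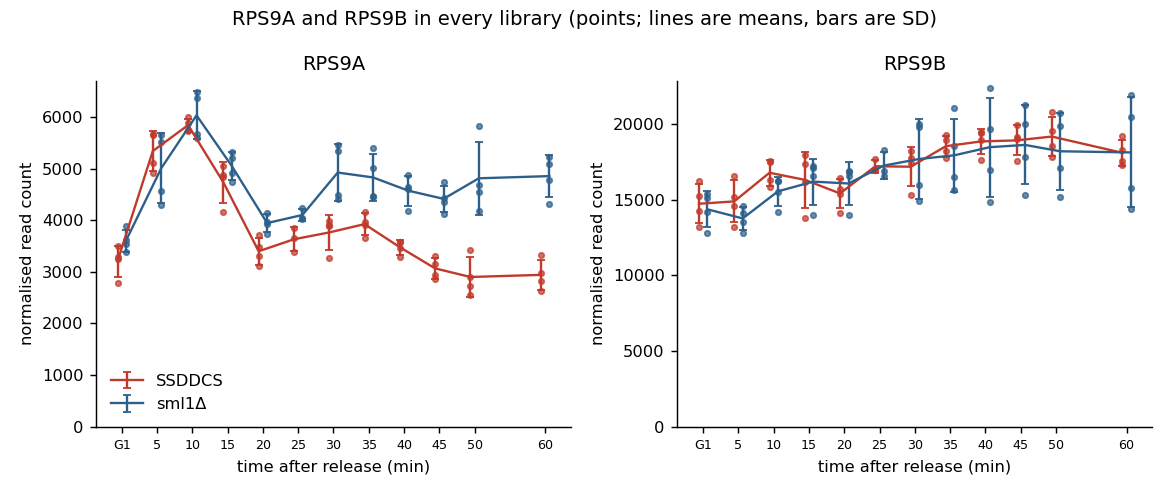
Normalised read counts (vertical axis, from 0) of RPS9A (left) and RPS9B (right) against time after release (min, horizontal axis). Points are libraries, lines are means and bars are SD, with SSDDCS in red and sml1Δ in blue. For RPS9A the strains separate from 20 min on and average 2941 in SSDDCS and 4855 in sml1Δ at 60 min, whereas for RPS9B they overlap.

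The A and B copies were compared in 21 pairs as the mean log2 ratio of each of 8 cultures over 11 time points. The level per kilobase differed more than 1.5 times within 6 pairs. RPS9B exceeded RPS9A 4.02 times, RPL13B exceeded RPL13A 1.89 times and RPL16B exceeded RPL16A 1.79 times, while RPS7A exceeded RPS7B 2.39 times, RPL7A exceeded RPL7B 1.91 times and RPL14A exceeded RPL14B 1.77 times. A was higher in 10 pairs and B in 11. The ratio differed between strains by less than 0.1 on the log2 scale in 20 of 21 pairs.

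The exception was RPS9, with -2.18 ± 0.05 in SSDDCS against -1.83 ± 0.10 in sml1Δ (SD, n = 4 each), no overlap and a difference of -0.35. Its exact permutation p of 0.0286 (two-sided) is the smallest that 70 splits of 8 cultures allow, and 0.15 after adjustment over 21 pairs, so no pair passed. These splits took no account of the pairing of cultures by replicate number. Among the other pairs, RPL11 (-0.08) and RPL1 (-0.06) also showed no overlap and reached the same exact permutation p, but reads of both are poorly placed, with 39.1% of stretches unique for RPL11 and 19.0% for RPL1. Within the course the RPL16 ratio, in well-placed genes, was -0.73 ± 0.05 at 45 min against -0.99 ± 0.05 in G1 in SSDDCS, and -0.65 ± 0.05 at 45 min against -0.95 ± 0.03 in G1 in sml1Δ (SD, n = 4 each), without overlap between the times. The RPL8 ratio was -0.83 ± 0.06 at 60 min against -0.34 ± 0.11 in G1 in SSDDCS, and -0.71 ± 0.16 at 60 min against -0.39 ± 0.05 in G1 in sml1Δ. No test was made of these changes over time.

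**Figure D5:**
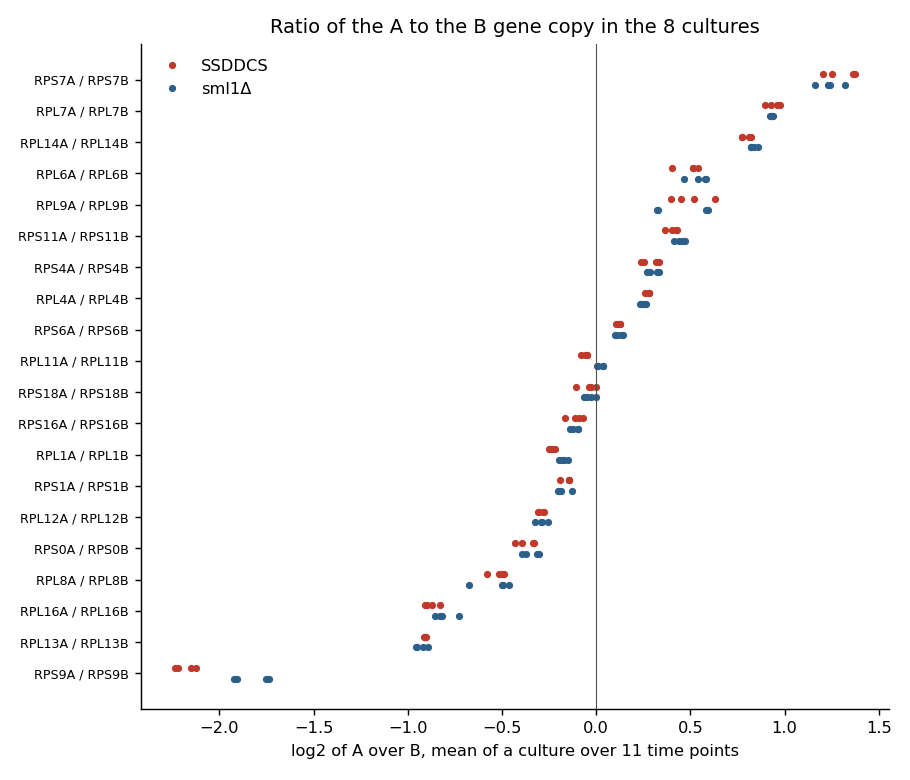
Log2 ratio of the A to the B gene (horizontal axis) for 20 of the 21 pairs (vertical axis), with a point for each culture averaged over 11 time points, SSDDCS in red above sml1Δ in blue. The strains lie farthest apart for RPS9, at -2.18 in SSDDCS and -1.83 in sml1Δ. They differ by less than 0.1 in the other pairs drawn, of which RPL11 and RPL1 also show no overlap.

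Regulators and partners of the ribosomal protein genes, taken as whole lists, were examined at 30 min. Of all genes 16.9% were higher and 14.3% lower at that time, and 19.8% were lower with the block. Of 16 regulators 2 were higher and 4 lower in SSDDCS, near the share of all genes. RAP1 (YNL216W), which encodes the factor bound at most of these promoters, had 1310, 1151, 1367 and 1128 in SSDDCS, against 2053, 1786, 1592 and 1861 in sml1Δ, with no overlap and a log2 difference of -0.56 (limma adjusted p 1.77e-04). MRS6, whose protein binds Sfp1, had a difference of -0.43, HMO1 of -0.39 and TOR1 of -0.30. CRF1 (YDR223W), a corepressor of ribosomal protein genes, had 279 ± 22.9 in SSDDCS against 111 ± 18.3 in sml1Δ (SD, n = 4 each) and was higher by 1.33 (limma adjusted p 1.36e-11). The kinase gene YAK1 was higher by 0.64. FHL1, IFH1 and SFP1 were not called. Whether any of these differences bears on the members was not tested.

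Of 10 dedicated chaperones of ribosomal proteins 2 were lower, FAP7 (-0.62, a partner of Rps14) and LOC1 (-0.42). Of 24 translation factors 11 were lower and 0 higher, with a median of -0.25, including the initiation factor subunits TIF35 (-0.40) and PRT1 (-0.39). Of 24 ribosome biogenesis factors 0 were called at 30 min by limma, although 23 lay below 0 (median -0.32), and 5 were lower with the block. Of 77 other ribosomal protein genes 1 was lower, RPL43B (-0.36), and 13 were lower with the block, below the share of all genes (19.8%), and their median was -0.14, as for the members. Of 67 mitochondrial ribosomal protein genes 2 were lower (median -0.49), and 21 were lower with the block.

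Marker lists were summed in the same libraries. The summed level of 6 stage markers (FUS1, CLN2, RNR1, HTA1, HTB1 and CLB2) at 30 min ran from 36068 to 44948 in SSDDCS and from 42749 to 67141 in sml1Δ, and at 60 min from 5496 to 10236 in SSDDCS and from 4316 to 11996 in sml1Δ. Since it pools markers of different stages, this sum does not by itself place a library in the cycle. The summed level of the 8 stress-induced genes at 30 min ran from 6527 to 13339 in SSDDCS and from 2455 to 6063 in sml1Δ, without overlap, and 3 of them were higher in SSDDCS, among them SSA4 (2.53) and HSP26 (2.94). At 60 min it ran from 6802 to 19721 in SSDDCS and from 6273 to 20481 in sml1Δ. Of these genes SSA4, a chaperone of the Hsp70 family, still did not overlap at that time, with 800, 690, 669 and 1418 in SSDDCS, against 407, 549, 524 and 391 in sml1Δ. At 50 min SSA4 had 1106, 886, 744 and 1622 in SSDDCS, against 399, 402, 467 and 397 in sml1Δ. SSA4 does not stand for the whole list at these times. The summed level at 50 min ran from 5504 to 12752 in SSDDCS and from 3753 to 17771 in sml1Δ. The highest of these was sml1Δ replicate 4, whose library lay nearer to 60 min. The mean sum was 7781 in SSDDCS against 10391 in sml1Δ at 50 min, and 11585 against 13267 at 60 min. The part of cell-cycle stage and of stress in the difference of RPS9A was not tested.

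The same lists were counted after release. Between G1 and 5 min, 24 of 24 biogenesis factors rose in SSDDCS (median 0.81) and 20 of 24 in sml1Δ (median 0.60), and 10 of 10 chaperones rose in SSDDCS and 7 of 10 in sml1Δ, against 1 of 60 members in each strain and against 25.6% of all genes in SSDDCS and 23.2% in sml1Δ. Of 67 mitochondrial ribosomal protein genes 57 fell in SSDDCS (27.6% of all genes) and 30 in sml1Δ (25.6% of all genes), and from 20 to 40 min 41 rose in SSDDCS (12.9% of all genes) and 64 in sml1Δ (17% of all genes). The median of the members between G1 and 5 min was 0.11 in SSDDCS and 0.00 in sml1Δ.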

How the data were processed

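RNA-seq libraries were made in 94 samples, and the deposited signal values are reads per gene that the authors divided by a DESeq2 size factor for each library. The study's methods name bowtie2 and the S288C genome, while the submitters' processing notes name cutadapt, TopHat2 version 2.0.6, DESeq2 and sacCer3. The RNA kit named in the methods keeps no strand, and the handling of reads with several positions is not given in the sources used here. Whole reads were recovered in 100% of values (tolerance 0.0001). Of 96 columns, 2 matched no sample and were not used. Of 138 replicate pairs, none differed by as little as sampling noise (lowest chi-square per degree of freedom 10.8).

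limma (version 3.58.1, R version 4.3.3) was fitted with a mean-variance trend to log2(value + 1) over 24 group means for 6414 genes with a mean of at least 10, leaving out 30 genes. Differences on this scale understate the change of low genes. P-values were two-sided, Benjamini-Hochberg adjusted within each comparison, and called under 0.01, the study's limit. Backgrounds ran over 6404 genes, without the 6 over-expressed genes and 4 markers. Culture means of paralog ratios were compared by exact permutation, without the pairing by replicate number. Simulated data with 50 changed genes per fold recovered 0% at 1.25-fold, 22% at 1.5-fold, 96% at 2-fold and 100% at 4-fold for the 30 min comparison over 6414 genes. The simulated counts were independent, with the same dispersion for every gene, no other change over time and no culture effect. These rates are thus not the sensitivity for the members, whose own spread was not modelled. Replicate numbers were taken to pair the samples, since deviations of same-numbered samples correlated at 0.51, 0.22, 0.23 and 0.29, and the block is named where it changed a count. The fit was repeated with a pseudocount of 0.1 or 5, without the filter, with equal library totals, equal totals outside ribosomal protein genes, with quantile or TMM scaling, with the block, with a correlation within culture, on each time point alone, without each replicate and without sml1Δ replicate 4 at 50 and 60 min, whose libraries lay each nearer to the other time. edgeR version 4.0.16 and DESeq2 version 1.42.0 were run on the recovered reads.

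Members, lists and tests were chosen with earlier results of these data known. Named members were the extremes of the 30 min difference and of the 5 min change, those least like the others, 6 single-copy genes, those called most often and the most unequal pairs, and for each list the genes with the largest differences. The Rap1 core and the window of 500 bases were chosen after a search for CCCNNACA in 300 bases had matched 8 of 60 members (13.3%, against 6.97% of all genes). A gene named outside this rule was chosen after its values were seen. Values of a few members are not reported here.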

Additional observations from a re-analysis of the deposited data

Results flagged for a closer look

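Of 148 groups of 4 samples tested for a value far from the others, 11 were set apart, where chance sets apart about 1 in 20. Replicate 1 was far deeper than the other cultures, with a gap of 0.964 of the range in SSDDCS and 0.932 in sml1Δ. Replicate 2 of SSDDCS at 30 min had a low share of the library in members, 6.95% (0.903 of the range), and low values of RPS9A (0.850), RPL12A (0.922), RPS0B (0.955) and RPS7A (0.847). RPS9A had 3264 in that library, below the other SSDDCS libraries, and its 30 min call held without SSDDCS replicate 2. Replicate 2 of sml1Δ at 15 min had a low share, 7.10% (0.849). Ratios set apart were RPL4A to RPL4B in SSDDCS replicate 3 (0.928), RPL8A to RPL8B in sml1Δ replicate 4 (0.833) and RPS1A to RPS1B in SSDDCS replicate 3 (0.952).

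Among the genes examined by name, the strain difference changed over the course for 9 (limma, strain-by-time terms). Over all genes 22.2% were called by the same test, so these 9 are not a full list. The adjusted p was 2.54e-08 for RPS9A, 0.00183 for FUS1, 0.00159 for FAP7, 2.89e-04 for CRF1, 0.00198 for RAP1, 6.86e-06 for MRS6, 0.00141 for TIF35, 2.44e-04 for PRT1 and 2.12e-13 for SSA4. RAP1 was highest at 40 min in SSDDCS (1495 ± 179) and at 35 min in sml1Δ (2024 ± 161), with 574 ± 129 in SSDDCS against 561 ± 86.8 in sml1Δ in G1 (SD, n = 4 each).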

How the results depend on the processing

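Counts of called members depended on how the spread and the scaling were modelled, and the cause was not tested. With a correlation within culture (0.376) they were 2 at 30 min (31.7% of all genes), 10, 8, 28 and 3 in the consecutive steps of SSDDCS (63.6%, 53.8%, 41.6% and 37.1% of all genes), 31, 44 and 5 in the last 3 steps of sml1Δ (47.8%, 47.2% and 36.5%), 9 for strain-by-time terms (42.3%) and 59 for time terms in SSDDCS (96.1%). With the replicate block they were 4, 3 and 2 at 30, 35 and 45 min, 8, 6, 24 and 3 in the steps of SSDDCS, 22, 27 and 2 in the last 3 steps of sml1Δ, 3 for strain-by-time terms and 52 for time terms in SSDDCS, and in the strain comparisons it changed no other call. With equal library totals they were 0 at 35 min (24.4%), 6, 1 and 0 in the last 3 steps of SSDDCS (39.7%, 30.5% and 24.4%), and 18 and 0 from 5 to 20 and 20 to 40 min in sml1Δ (36.7% and 36.5%). With totals equal outside ribosomal protein genes they were 0 at 35 min (25.1%), 5, 0 and 0 in the last 3 steps of SSDDCS (40.3%, 30.4% and 25.6%), and 17 and 0 from 5 to 20 and 20 to 40 min in sml1Δ (38.4% and 36%). With quantile normalization they were 0 at 35 min (25.1%), 12, 7, 1 and 3 in the steps of SSDDCS (52.2%, 40.2%, 31.1% and 25.6%), 17 and 0 from 5 to 20 and 20 to 40 min in sml1Δ (36.7% and 32.4%), and 40 in SSDDCS (87.5%) and 25 in sml1Δ (80.2%) for time terms, so that the order of the strains turned. Quantile normalization also turned the 20 to 40 min change of RPL5 in sml1Δ to -0.012 and of RPL10 in SSDDCS to -0.039. With each time point alone they were 0 at 30, 35 and 50 min (18.9%, 15.5% and 1.23%), a fit with fewer samples. DESeq2 gave 58 for time terms in SSDDCS (89.9%).

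Leaving out 1 replicate gave 1 to 3 calls at 30 min, 0 to 1 at 35 min, 1 to 2 at 40 min and 1 at 45, 50 and 60 min, and 0 at the earlier times. The steps gave 1 to 3, 1 to 4, 0 to 9 and 0 to 1 in SSDDCS and 1 to 3, 4 to 9, 2 to 8 and 0 in sml1Δ. Time terms gave 6 to 33 in SSDDCS and 27 to 56 in sml1Δ, strain-by-time terms 1, and paralog pairs 0. These ranges are given without the share of all genes called in the same fits, so they are not particular to the members. In simulated data for the 30 min comparison over 6414 genes, 22% of changes of 1.5-fold were recovered, with a dispersion that was not fitted to the members.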
